A study of Mus musculus with 12 samples.

Results

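The 10 genes described here are 9 members of the Bcl2 family and the caspase gene Casp2. They were chosen by name, with earlier results of these data known. Each symbol matched 1 of the 47643 Ensembl genes counted in the series. The anti-apoptotic members are Bcl2l1 (which encodes Bcl-xL) and Mcl1, and the effectors are Bax and Bak1. The BH3-only members are Bcl2l11 (Bim), Bid, Bbc3 (Puma), Pmaip1 (Noxa) and Bik. All of them are protein-coding genes, and all 10 passed the filter on low counts.

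The data are poly(A) RNA-seq of mouse embryonic stem cells (line E14, background 129/Ola), in 6 groups with 2 libraries each. WT cells and the Dicer knockout (KO) were compared with 4 lines labelled as complemented with Dicer. These are SOM, whose name is not explained, 41584, labelled as similar to WT, 41585, labelled as unable to process miRNAs or siRNAs, and 41589, labelled as unable to process siRNAs. All 6 groups were grown in serum with LIF on gelatin and kept in puromycin, so no group is free of the drug. The labels name each complemented line by 1 name and do not tell whether a line is 1 clone, whether both libraries of a group are separate cultures, and which Dicer sequence was put back. The p-values therefore measure only the spread between these libraries, which may be technical.

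Bcl2 family proteins decide at the outer mitochondrial membrane whether a cell dies by the intrinsic route of apoptosis. Bax and Bak form the pores that release cytochrome c, Bcl-xL and Mcl-1 hold them in check, and BH3-only proteins bind the guardians or activate the effectors directly. Caspase-2 is an initiator caspase that is activated on a platform made of the adaptors Raidd (Cradd) and Pidd1, and it can cleave Bid. In mouse embryonic stem cells, miRNAs of the miR-290 cluster are abundant. The literature describes Casp2 as a target of the miR-290 cluster and Bcl2l11 as a target of the miR-17 to miR-92 cluster.

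The libraries held 5348401 to 10428509 counted reads, and the 2 libraries of a group correlated at 0.935 to 0.983 on log2 CPM. Levels are given as CPM, the reads of a gene scaled to a common library size after TMM normalization. Dicer1 was at 28.5 and 44 CPM in KO and at 197 and 214 CPM in WT, while 41584, 41585 and 41589 lay between 27.8 and 55 CPM and SOM at 105 and 215 CPM. The level in 41584 (42.3 and 55 CPM) and in 41589 (40.2 and 27.8 CPM) overlapped that of KO, so the Dicer1 counts do not show Dicer put back in these lines, and the directions given for them rest on their labels. Each of the 7 pluripotency markers examined was at 140 CPM or above in every library. Their sum was 6605 to 7339 CPM in KO and 41585 and 5653 to 6859 CPM in the other groups. Among the 7, Pou5f1 moved with the groups and with the GC trend described next. It was at 140 and 322 CPM in WT, 352 and 386 in 41584, 274 and 791 in 41589, 749 and 551 in SOM, 509 and 465 in KO and 946 and 854 in 41585, and its part in the results was not tested. Of 6 fibroblast markers 4 stayed under 1 CPM in every library, Col1a1 reached 1.53 CPM and Thy1 25.4 CPM, and their sum was 6.47 to 14 CPM in KO and 41585 and 6.53 to 27.5 CPM in the other groups. Sums of primitive endoderm markers were 4.77 to 8.49 CPM and 3.84 to 31.6 CPM. Those of trophectoderm markers were 4.37 to 12.4 CPM in KO and 41585 and 6.13 to 8.82 CPM in the other groups. Neural and mesodermal markers summed to 4.77 to 7.2 CPM and 2.47 to 12.7 CPM. In such bulk libraries fewer cells of a type and less RNA per cell cannot be told apart. The libraries differed in their balance between GC-rich and GC-poor transcripts, here called the GC trend. It is the median log2 deviation of the 20% of tested genes with the highest GC content minus that of the 20% with the lowest. The trend was −0.969 in WT replicate 1 and −0.272 in WT replicate 2, 0.0266 and −0.075 in KO, 0.31 and −0.164 in SOM, 0.0945 and −0.74 in 41584, 1.05 and 0.679 in 41585, and −0.651 and 0.765 in 41589. Both 41585 libraries were thus at the GC-rich end, and WT replicate 1 at the GC-poor end.

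The miRNAs below are shown with their seed, bases 2 to 8, in capitals, because the letters of a target site follow from it. Sequences are those of RefSeq on GRCm38.p6. In all, 19 mature miRNAs with 7 seeds were searched.

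miR-294-3p: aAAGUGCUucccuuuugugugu

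miR-302b-3p: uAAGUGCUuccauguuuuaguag

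miR-17-5p: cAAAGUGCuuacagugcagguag

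miR-92a-3p: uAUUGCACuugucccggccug

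The 7-mer AGCACTT, the reverse complement of the seed that miR-294 and miR-302b share, occurred in the 3' UTRs of Casp2, Bcl2l11 and Mcl1, which is 3 of 10 members. It occurred in 17.6% of the 12875 tested genes with a 3' UTR of at least 50 bases. Bcl2l11, with a UTR of 4218 bases, held it 3 times, and Casp2 and Mcl1, with UTRs of 2031 and 2353 bases, held it once each. UTRs were searched on the transcript strand, and the median UTR of a tested gene had 1183 bases. Coordinates are 1-based on GRCm38, all on the plus strand, and the capitals mark the 7-mer. All 5 occurrences among the members are printed, since Casp2 was called in the pooled contrast described later and Bcl2l11 and Mcl1 were not.

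Casp2, chr6:42281547-42281575: tataacctagaAGCACTTgtctctgctct

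Bcl2l11, chr2:128159569-128159597: atgccgagtaaAGCACTTgtcttccacaa

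Bcl2l11, chr2:128159766-128159794: cctggtggaggAGCACTTtctaacctgtg

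Bcl2l11, chr2:128160440-128160468: tccccgactggAGCACTTtactgtctcag

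Mcl1, chr3:95662631-95662659: tcggacttcagAGCACTTtatgtagttga

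The miR-17 7-mer GCACTTT, which overlaps AGCACTT by 6 letters and was in 14.6% of UTRs, occurred in Mcl1, Bcl2l11 (at 2 positions), Bid and Casp2. In Mcl1 and at 2 positions of Bcl2l11 it is shifted by 1 base from the AGCACTT printed above. The miR-92 7-mer GTGCAAT (7.46% of UTRs) occurred in Mcl1, Bak1 and, at 2 positions, Bcl2l11. Bcl2l11 also held the miR-19 7-mer TTTGCAC (13.4% of UTRs). The let-7 7-mer CTACCTC (10.7%) was in Bcl2l1, and the miR-34 7-mer CACTGCC (17.4%) in Bax, Bid and Casp2. The miR-16 7-mer TGCTGCT, present in 24.5% of UTRs, was in no member's UTR. None of the 7 was found in Bbc3, Pmaip1 or Bik. Such matches describe letters and do not show that a site is used.

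Levels of different genes can be compared only per length of exon. Mcl1 was the most abundant member in every library, with a median of 228 CPM per kb over the 12 libraries (173 to 261), and its lowest library lay above the highest of any other member. Bax followed with a median of 29.1 CPM per kb (10.1 to 84.9), Pmaip1 with 18.4 (7.75 to 36.5) and Bak1 with 11.4 (3.79 to 29.3). Bid had a median of 10.02 CPM per kb (7.58 to 14.1), Bcl2l11 7.39 (4.48 to 9.66), Casp2 5.72 (3.77 to 9.23) and Bcl2l1 5.28 (2.29 to 7.95). These ranges overlap, so the order from Bax to Bcl2l1 is not fixed across libraries. Bbc3 and Bik were the rarest, with medians of 1.44 and 0.848 CPM per kb, resting on 7 to 72 and 2 to 48 reads per library. Bcl2, the founding anti-apoptotic gene of the family, was at 0 to 1.32 CPM and too low to be tested.

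**Figure D1:**
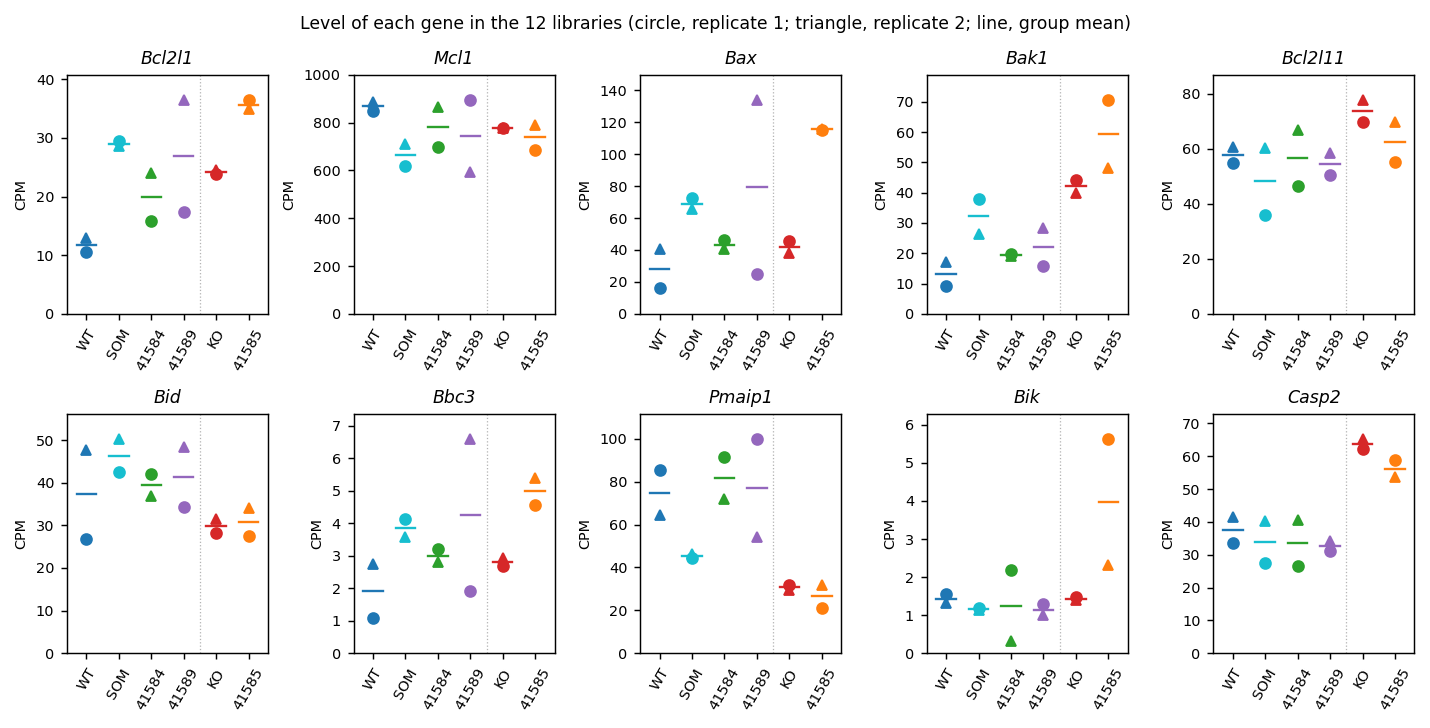
CPM of each of the 10 genes (vertical axis, from 0) in the 12 libraries by group; circles are replicate 1, triangles replicate 2, lines the mean of the 2, and the dotted line sets KO and 41585 apart. Bak1 and Casp2 are higher and Pmaip1 lower in the 4 libraries of KO and 41585 than in all 8 others, while Bax spans 25 to 134 CPM within 41589.

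The first question was how the family differs between cells that make miRNAs and cells that do not. By the labels, KO and 41585 lack miRNA processing. WT and 41584 are taken to have it, and so is 41589, whose label names only siRNAs. SOM was left out of this pooled contrast because its name is not explained. Across the mean of KO and 41585 against the mean of WT, 41584 and 41589, Bak1, Casp2 and Bcl2l1 rose and Pmaip1 fell, and the other 6 members did not pass the test. "Called" stands for an adjusted p under 0.05 by edgeR's quasi-likelihood test with Benjamini-Hochberg adjustment over 14629 genes, and folds are log2 values ± standard error of that fit. The 4 of 10 members called are to be read against 33.5% of all tested genes called in the same contrast (17.6% higher, 15.9% lower), so the count does not set the family apart. The median log2 fold of the 10 members was 0.47 and that of all tested genes −0.01. Bcl2l1, Bax, Bak1, Bbc3 and Bik, at 55.9 to 65.2% GC, belong to the GC-rich genes of the GC trend, which start at 55.2%. Those GC-rich genes had a median of 0.385 in this contrast. The medians of the members and of all tested genes were not matched for GC content, so they do not set the family apart either. The comparisons below share libraries with this pooled contrast and with each other, and are given side by side.

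Among the effectors, Bak1 (chromosome 17: 27019810–27029009) showed the largest rise of the 10 members. It was at 9.12 and 17.3 CPM in WT, 19.7 and 19 in 41584, 15.7 and 28.5 in 41589 and 38.1 and 26.3 in SOM. KO libraries held 44.2 and 40 CPM and 41585 libraries 70.6 and 48.1 CPM. All 4 libraries without miRNA processing therefore lay above the other 8, with the highest SOM library closest to them. In the pooled contrast Bak1 was 2.8-fold higher (log2 1.48 ± 0.23, adjusted p = 0.000535 by edgeR). Group means rose in the order WT (13.2 ± 5.77 CPM, SD, n = 2), 41584 (19.3 ± 0.511), 41589 (22.1 ± 9.03), SOM (32.2 ± 8.31), KO (42.1 ± 2.92) and 41585 (59.3 ± 15.9). Each pair of neighbours in this order differed by less than the sum of their SDs. Exons of Bak1 overlap those of Ggnbp1 on the opposite strand, a gene with 603 reads in all, and no source used here says whether reads were counted by strand.

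Against its own control, Bak1 rose in KO against WT (1.66 ± 0.38, adjusted p = 0.0148 by edgeR), in 41585 against 41584 (1.62 ± 0.37, adjusted p = 0.0174) and in 41585 against WT (2.16 ± 0.38, adjusted p = 0.00339). Where 1 library of a group is left out, the other is assumed to vary like the rest of the groups. The KO call was lost without WT replicate 1 (adjusted p = 0.156), KO replicate 1 (0.111) or KO replicate 2 (0.0559). That of 41585 against 41584 was lost without 41584 replicate 2 (0.0587) or 41585 replicate 1 (0.136), and that of 41585 against WT without WT replicate 1 (0.0553). The longest Bak1 transcript has 57.1% GC, against a median of 49.4% for tested genes. After removal of each library's trend with GC content and length, a setting chosen after seeing the data, the folds were 1.11 in the pooled contrast, 1.42 in KO, 0.91 in 41585 against 41584 and 1.46 in 41585 against WT. All 4 stayed called (adjusted p = 0.000358, 0.00467, 0.0369 and 0.00364 by edgeR). Relative to KO, Bak1 was at −1.12 ± 0.37 in 41584 and −0.93 ± 0.37 in 41589, neither called (adjusted p = 0.0871 and 0.158 by edgeR). In SOM against KO it was −0.39 ± 0.36 (adjusted p = 0.62). With the trend removed, 41584 (−0.87, adjusted p = 0.0452) and 41589 (−0.99, adjusted p = 0.0263) were called against KO and SOM was not (−0.32, adjusted p = 0.446).

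Bax (chromosome 7: 45461697–45466898), the other effector, varied widely between the replicates of WT and 41589, by 2.56-fold and 5.35-fold, and by 1.19-fold or less in the other 4 groups. It was at 15.9 and 40.8 CPM in WT, 45.7 and 38.3 in KO, 72.5 and 65.4 in SOM, 46 and 40.6 in 41584, 115 and 116 in 41585, and 25 and 134 in 41589. The 41589 libraries thus enclosed the values of KO, SOM, 41584 and 41585. Bax was not called in the pooled contrast (0.59 ± 0.36, 95% interval −0.18 to 1.37, adjusted p = 0.215 by edgeR). Without 41589 replicate 2 it was called there (1.16, adjusted p = 0.00259). In 41585 against WT Bax rose by 2.02 ± 0.58 (adjusted p = 0.0232 by edgeR), a call lost without WT replicate 1 (0.196) or either 41585 library (0.0738 and 0.0697).

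At 63.5% GC, Bax is among the 20% of tested genes with the highest GC content, which start at 55.2%. These genes had a median log2 fold of 0.925 in 41585 against WT and 0.385 in the pooled contrast. With the GC and length trend removed, Bax in 41585 against WT was 0.71 with adjusted p = 0.154, and the ratio between the 41589 libraries was 2.22. The exons of Bax also overlap a gene model on the same strand, Gm45808, that has no row among the counts.

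**Figure D2:**
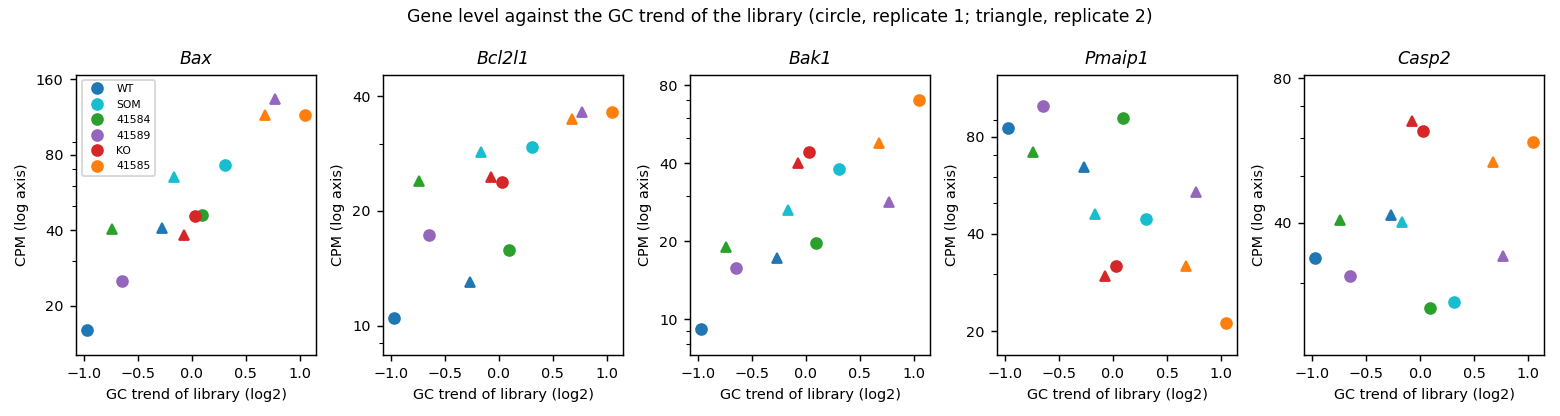
CPM of 5 members on a log axis against the GC trend of each library (log2, GC-rich minus GC-poor genes, 20% each); colours are groups, circles replicate 1 and triangles replicate 2. Bax is highest, at 115 CPM or above, in the 3 libraries with a trend of 0.679 or more, whatever their group, while Casp2 in KO lies at 62.2 and 65.1 CPM with a trend near 0.

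Of the anti-apoptotic genes, Bcl2l1 (chromosome 2: 152780668–152831728) was lowest in WT. Its libraries held 10.5 and 13 CPM in WT, 23.8 and 24.5 in KO, 29.5 and 28.6 in SOM, 15.9 and 23.9 in 41584, 36.4 and 34.9 in 41585 and 17.3 and 36.4 in 41589. The highest 41589 library was level with the highest of 41585, so the libraries with and without miRNA processing overlapped. In the pooled contrast Bcl2l1 rose by 0.67 ± 0.22 (adjusted p = 0.0358 by edgeR). This call was lost without WT replicate 1 (adjusted p = 0.0899), KO replicate 1 (0.103), KO replicate 2 (0.0987), 41584 replicate 1 (0.0672), 41585 replicate 1 (0.0968), 41585 replicate 2 (0.0803) or 41589 replicate 1 (0.0503). It was also lost with SOM among the miRNA-processing groups (0.0836), with only the 5 groups compared in the fit (0.0564) and with the GC and length trend removed (0.34, adjusted p = 0.227).

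Against single groups, Bcl2l1 rose in 41585 against WT (1.59 ± 0.36, adjusted p = 0.00912 by edgeR), a call lost without WT replicate 1 (0.102). In KO against WT it was 1.03 ± 0.36 (adjusted p = 0.0723) and in 41585 against 41584 0.84 ± 0.35 (adjusted p = 0.12), neither of them called. KO against WT was called by DESeq2 (adjusted p = 0.0457), with the replicate number as a block (0.0492) and with only those 2 groups in the fit (0.00992). The same gene stood at 1.298 ± 0.36 in SOM against WT, not called by edgeR (adjusted p = 0.135) and called by DESeq2 (0.0261). Its longest transcript has 55.9% GC. With the GC and length trend removed, Bcl2l1 in 41585 against WT was 1.02 and called (adjusted p = 0.0435 by edgeR). KO against WT was then 0.81 (adjusted p = 0.11) and 41585 against 41584 0.19 (adjusted p = 0.725), neither of them called.

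Mcl1 (chromosome 3: 95658788–95663176), which encodes a short-lived guardian needed in the early embryo, was close to level. Its libraries held 687 to 792 CPM in KO and 41585 (median 779, n = 4) and 592 to 894 CPM in WT, 41584 and 41589 (median 858, n = 6). The pooled log2 fold was −0.07 ± 0.15 with a 95% interval of −0.40 to 0.26 (adjusted p = 0.752 by edgeR). The gene carries 1 AGCACTT, 1 overlapping GCACTTT and 1 GTGCAAT.

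Pmaip1, on chromosome 18, encodes Noxa, the BH3-only protein that binds Mcl-1 and is a p53 target. It was the only member called lower in the pooled contrast. Its libraries held 85.4 and 64.3 CPM in WT, 91.5 and 72 in 41584 and 99.7 and 54.1 in 41589. In KO it was at 31.8 and 29.6 CPM, in 41585 at 21.2 and 31.9, and in SOM at 44.6 and 46.2. All 4 libraries without miRNA processing lay below the other 8, and SOM lay between the 4 and the rest. The pooled contrast gave a level 2.72-fold lower (log2 −1.45 ± 0.21, adjusted p = 0.000318 by edgeR), and −1.24 with the GC and length trend removed (adjusted p = 0.000172). The longest Pmaip1 transcript has 42.1% GC, at the other end from Bax.

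Pmaip1 fell in KO against WT (−1.28 ± 0.31, adjusted p = 0.0198 by edgeR), in 41585 against 41584 (−1.62 ± 0.31, adjusted p = 0.00879) and in 41585 against WT (−1.50 ± 0.31, adjusted p = 0.00693). The KO call was lost without WT replicate 1 (0.163), KO replicate 1 (0.142) or KO replicate 2 (0.143). The call of 41585 against 41584 was lost without 41585 replicate 1 (0.0836), and that of 41585 against WT without WT replicate 1 (0.0788) or 41585 replicate 1 (0.0652). In the lines taken to process miRNAs, Pmaip1 rose against KO in 41584 (1.41 ± 0.31, adjusted p = 0.017) and in 41589 (1.32 ± 0.31, adjusted p = 0.0232). Without KO replicate 1 or 2 those calls were lost (0.14 and 0.135 for 41584, 0.177 and 0.172 for 41589), as they were without 41584 replicate 1 (0.0684) and 41589 replicate 1 (0.129). With only KO and 41589 in the fit, the latter had adjusted p = 0.0675. In SOM against KO the fold was 0.56 ± 0.31, with a 95% interval of −0.11 to 1.24 (adjusted p = 0.344).

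Bcl2l11 (chromosome 2: 128126038–128162547) encodes Bim, which binds all anti-apoptotic members, and it carries more of the 7-mers searched than any other member, 8 in all. Its libraries held 55.2 to 77.6 CPM in KO and 41585 (median 69.7, n = 4), 46.3 to 66.8 CPM in WT, 41584 and 41589 (median 56.6, n = 6) and 36 and 60.3 CPM in SOM. The ranges overlapped, and the gene was not called in any of the 12 comparisons. The pooled log2 fold was 0.27 ± 0.18 with a 95% interval of −0.11 to 0.65 (adjusted p = 0.256 by edgeR). In KO against WT it was 0.35 ± 0.28 (adjusted p = 0.425), with both KO libraries above both WT libraries, and in 41585 against 41584 0.14 ± 0.28 (adjusted p = 0.744). With the GC and length trend removed the pooled value was 0.29 (adjusted p = 0.203).

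Bid (chromosome 6: 120891930–120916853), which links death receptors and caspase-2 to mitochondria after cleavage, was at 27.6 to 34 CPM in KO and 41585 and at 26.9 to 48.5 CPM in WT, 41584 and 41589. SOM held 42.5 and 50.2 CPM. Only WT replicate 1, at 26.9 CPM, reached below the libraries without miRNA processing. The pooled fold of −0.38 ± 0.20 was not called (adjusted p = 0.15 by edgeR), and with the GC and length trend removed it was −0.52 and called (adjusted p = 0.046). Exons of Bid overlap those of Bcl2l13, a neighbour with 5546 reads on the opposite strand, so its count may hold reads of that gene if strand was ignored. Mean Bcl2l13 was also lower in KO and 41585 (46.1 and 48.1 CPM) than in WT, 41584 and 41589 (67.3, 63.7 and 70.8 CPM). The part of Bcl2l13 in the Bid values was not tested.

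Bbc3 and Bik rest on few reads. Bbc3 (chromosome 7: 16308393–16318205), whose product Puma is induced by p53, was at 1.08 to 6.58 CPM over the WT, 41584 and 41589 libraries and at 2.68 to 5.4 CPM over those of KO and 41585 (pooled 0.35 ± 0.38, adjusted p = 0.504 by edgeR). It has the highest GC content of the 10, 65.2%, and its 41589 libraries differed 3.42-fold, or 1.31-fold with the GC and length trend removed. Bik (chromosome 15: 83526862–83544634) was at 5.62 and 2.32 CPM in 41585, at 2.17 and 0.311 CPM in 41584, and at 1.55 CPM or less in the 8 other libraries. Its pooled fold was 0.89 ± 0.47 (adjusted p = 0.155 by edgeR) and was called without 41584 replicate 1 (1.55, adjusted p = 0.0181), as was 41585 against 41584 (3.61, adjusted p = 0.0292). These 2 values set 41584 by a single library with 2 Bik reads and take its spread from the other groups. Chromosome 15 as a whole differed between those replicates. The median log2 deviation of its 569 tested genes was 0.387 and −0.231 in 41585 and 0.226 and −0.487 in 41584, so in each of these lines the library with more Bik is also the one with more chromosome 15 signal. Replicate 1 was above replicate 2 on chromosome 15 in SOM and 41589 too (0.0444 and −0.328, 0.0867 and −0.193). The part of this in the Bik values was not tested.

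Casp2 (chromosome 6: 42264985–42282508) rose without miRNA processing. Its replicates differed by at most 1.1-fold in KO, 41585 and 41589, by 1.23-fold in WT, 1.47-fold in SOM and 1.53-fold in 41584. It was at 33.7 and 41.6 CPM in WT, 26.6 and 40.6 in 41584, 31 and 34.2 in 41589 and 27.4 and 40.2 in SOM. KO held 62.2 and 65.1 CPM and 41585 58.9 and 53.6 CPM. Every library of KO and 41585 was above each of the other 8, the lowest of the 4 being at 53.6 CPM and the highest of the 8 at 41.6 CPM. The pooled contrast gave 1.73-fold more Casp2 mRNA (log2 0.79 ± 0.17, adjusted p = 0.0042 by edgeR), and adjusted p ranged from 0.00168 to 0.0218 when each library was left out in turn. At 47.7% GC its transcript is close to the median of tested genes, and the fold with the GC and length trend removed was 0.78 (adjusted p = 0.00411).

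With 2 libraries a side, the size was alike and was not called. Casp2 was 0.76 ± 0.27 in KO against WT (adjusted p = 0.0823 by edgeR), 0.75 ± 0.27 in 41585 against 41584 (adjusted p = 0.0851) and 0.58 ± 0.27 in 41585 against WT (adjusted p = 0.119). Relative to KO it stood at −0.91 ± 0.27 in SOM (adjusted p = 0.0691), −0.92 ± 0.27 in 41584 (adjusted p = 0.0593) and −0.97 ± 0.27 in 41589 (adjusted p = 0.0504). DESeq2 called these last 3 (adjusted p = 0.0421, 0.0375 and 0.0206), as did the fit with the replicate number as a block (0.0435, 0.0355 and 0.0321). KO against WT was called with only those groups in the fit (adjusted p = 0.011), and 41585 against 41584 without 41584 replicate 2 (0.0476).

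**Figure D3:**
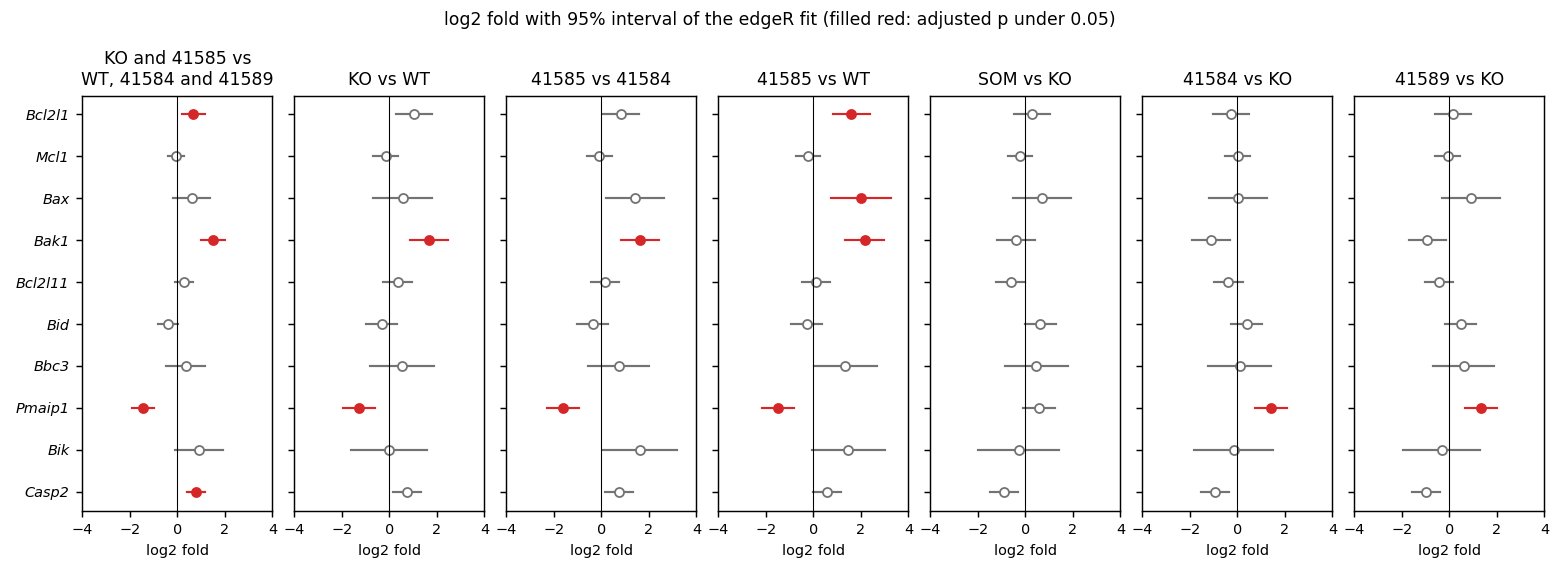
log2 fold (horizontal axis) of each member with its 95% interval in the pooled contrast and in 6 pairwise ones; filled red points have an adjusted p under 0.05 by edgeR. Pmaip1 is on the lower side in the 4 comparisons of cells without miRNA processing and on the higher side in the 3 lines compared with KO, where 41584 and 41589 are called.

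By comparison, the counts of called members were 2 of 10 in KO against WT (Bak1 higher, Pmaip1 lower), where 13.2% of all tested genes were called (7.29% higher, 5.9% lower). They were 2 of 10 in 41585 against 41584 (the same 2 names), where 12.7% were called (7.65% higher, 5.07% lower). In 41585 against WT 4 of 10 were called (Bcl2l1, Bax and Bak1 higher, Pmaip1 lower) beside 29.2% of all genes (16.3% higher, 12.9% lower). Against KO, 1 of 10 was called in 41584 and 1 of 10 in 41589, Pmaip1 in both, beside 7.44% and 7.09% of all genes. In SOM against KO 0 of 10 were called, beside 6.08%, with 2 members at an unadjusted p under 0.05 and 1 called by DESeq2, which called 1294 of all genes.

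The 8 libraries with and the 4 without miRNA processing, SOM counted with the former, did not overlap for 3 of 10 members, Bak1, Pmaip1 and Casp2. Among all tested genes this held for 17.8%.

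Comparisons within each side gave no calls in the edgeR fit over all 12 libraries, for the members or for any gene. In 41585 against KO 0% of all genes were called, with 1 member at an unadjusted p under 0.05 (Bax, 1.46 ± 0.57, higher in 41585) and 0 members called by DESeq2, beside 995 and 1 of all genes. With only KO and 41585 in the fit, edgeR called 1 member and 545 of 13392 genes. In SOM against WT 0% were called, with 4 members at an unadjusted p under 0.05 and 2 called by DESeq2, Bcl2l1 and Bak1, both higher in SOM. Among all 14629 genes 3175 were at an unadjusted p under 0.05 there, and DESeq2 called 662. With only SOM and WT in the fit, edgeR called 3 members and 2035 of 12956 genes. Bak1 there was 1.27 ± 0.38 (adjusted p = 0.141 by edgeR, 0.0345 by DESeq2), and SOM libraries held 38.1 and 26.3 CPM against 9.12 and 17.3 in WT. In 41584 against WT, 41589 against WT and 41589 against 41584 the share called was again 0%, with 0, 2 and 0 members at an unadjusted p under 0.05 (706, 1719 and 103 of all genes) and 0 members called by DESeq2 (27, 64 and 0 of all genes). Bax in 41589 against WT followed 1 library. It was 1.48 with all libraries (adjusted p = 0.41 by edgeR), 2.23 without 41589 replicate 1 (adjusted p = 0.0177) and −0.19 without 41589 replicate 2 (adjusted p = 1), the library at 134 CPM. Without the filter on low counts it was also called (1.52, adjusted p = 0.000282). Bcl2l1 there ranged from 0.56 to 1.63 over the alternatives and was called only without 41589 replicate 1 (adjusted p = 0.0223).

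Whether the loss of miRNA processing acts alike in KO and in 41585 was asked by the difference of the differences, 41585 against 41584 minus KO against WT. No gene was called (0% of all, 0 of 10 members, 0 members at an unadjusted p under 0.05, and 0 members called by DESeq2, beside 419 and 1 of all genes). For Casp2 this difference was −0.01 ± 0.38, for Bak1 −0.04 ± 0.51 and for Pmaip1 −0.34 ± 0.44. With the GC and length trend removed these were −0.07 ± 0.37, −0.51 ± 0.36 and −0.24 ± 0.33. The largest differences without that removal were those of Bik (1.62 ± 1.04, 95% interval −0.63 to 3.88) and Bax (0.86 ± 0.80, −0.87 to 2.58). The 95% interval for Casp2 ran from −0.84 to 0.82, about the size of its pooled change in either direction.

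Around the 10 members, a list of 50 other genes of the mitochondrial death pathway was counted. Of these 44 could be tested, and in the pooled contrast 10 rose and 11 fell, with a median log2 fold of −0.06. That is 47.7% of the tested genes in the list, beside 33.5% of all genes. The list was chosen with earlier results of these data known, so its shares here and below are not independent of them. In KO against WT, 3 rose and 5 fell, which is 18.2% beside 13.2% of all genes. In 41585 against 41584, 3 rose and 3 fell (13.6% beside 12.7%). In 41585 against WT, 7 rose and 8 fell (34.1% beside 29.2%). The 6 untested genes included Bcl2, the Bcl2a1 paralogs and Bcl2l10, each at most at 1.32 CPM.

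The genes of that list with the smallest adjusted p in the pooled contrast acted at different points of the pathway. Birc3, an inhibitor of apoptosis protein induced by NF-kappaB, rose by 1.96 ± 0.24 (adjusted p = 0.000107 by edgeR), from 5.75 to 9.52 CPM in WT, 41584 and 41589 to 21.3 to 37.2 CPM in KO and 41585, with SOM at 5.83 and 11.5 CPM. Bcl2l14, a distant family member, rose by 1.80 ± 0.27 (adjusted p = 0.000397). Mdm2, the ubiquitin ligase and p53 target that restrains p53, fell by 1.19 ± 0.18 (adjusted p = 0.000492). Its libraries ranged from 226 to 362 CPM with miRNA processing and from 110 to 158 CPM without it, SOM lying at 190 and 238 CPM. Casp6, an executioner caspase, fell by 1.89 ± 0.35 (adjusted p = 0.00176). The hypoxia-induced mitophagy receptor gene Bnip3 fell by 1.19 ± 0.23 (adjusted p = 0.00193), and the BH3-only gene Hrk by 2.03 ± 0.41 (adjusted p = 0.00265). All 6 kept their calls under each of the 17 alternatives run. These genes were picked by their adjusted p in this contrast and the alternatives reuse its libraries, so that is no independent support.

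The partners of caspase-2 did not pass the test. Cradd, the adaptor Raidd, was at 0.64 ± 0.27 in the pooled contrast (adjusted p = 0.0832 by edgeR) and was called without 41584 replicate 2 (0.84, adjusted p = 0.0215) or 41589 replicate 2 (0.80, adjusted p = 0.035). Pidd1, the scaffold of the complex, was at −0.05 ± 0.29 (adjusted p = 0.906), with 11.5 to 37.5 CPM over the 12 libraries.

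**Figure D4:**
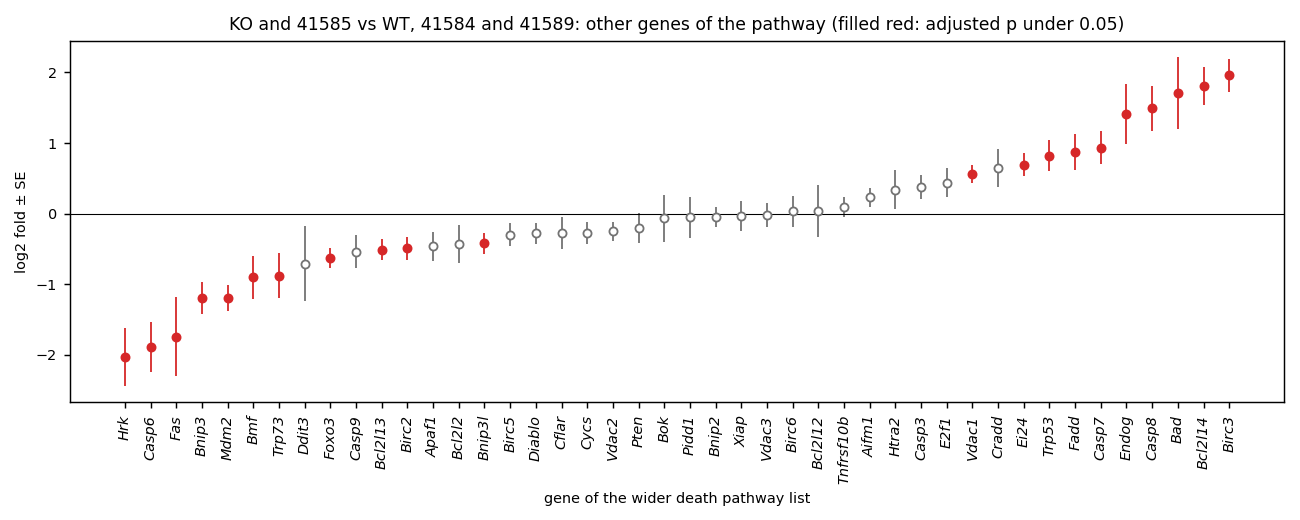
log2 fold ± SE of the 44 tested genes of the wider pathway list (ordered along the horizontal axis) in KO and 41585 against WT, 41584 and 41589; filled red points have an adjusted p under 0.05 by edgeR. The 10 called genes on the right rise up to 1.96 (Birc3) and the 11 on the left fall down to −2.03 (Hrk).

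Likeness of pattern was measured by Pearson's r of log2 CPM over the 12 libraries, among 10450 other genes of at least 5 CPM on average. These libraries share groups and GC trends, so r describes them only. The closest genes were Tut1 and Trmo for Bcl2l1 (0.983 and 0.982), Vps13a and Esco1 for Mcl1 (0.903 and 0.893), Gm10020 and Dctn1 for Bax (0.99 and 0.988), and Actg1 and Anapc7 for Bak1 (0.987 and 0.977). For Bcl2l11 they were Stx3 and Zfp704 (0.939 and 0.921), for Bid Snapc4 and Gpam (0.865 and 0.86), and for Bbc3 Ranbp3 and Rrp12 (0.986 and 0.98). For Pmaip1 they were A430033K04Rik and Kntc1 (0.968 and 0.959), for Bik Hadh and H2-K1 (0.919 and 0.902), and for Casp2 Sh3gl2 and Slc23a1 (0.979 and 0.976). Within the 10 members, Bax and Bbc3, the pair of highest GC content, had an r of 0.976 and Bak1 and Pmaip1 one of −0.921.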

How the data were processed

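What the authors deposited are unnormalized counts of reads for every Ensembl gene in 12 libraries. Reads were aligned with STAR 2.4.2a to mm10 (GRCm38), per the submitters' processing notes. The libraries were reverse-stranded, per the labels' protocols. No source used here names the counting program, its strand setting or the annotation. GENCODE M21, on the same build, gave a symbol to 47224 of the 47643 genes, and exon lengths, GC content of the longest transcript and 3' UTRs (the longest of a gene's basic coding transcripts).

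Tests used edgeR 4.0.16 (glmQLFit with robust estimation, TMM, filterByExpr, 1 mean per group over all 12 libraries, 6 residual degrees of freedom), with DESeq2 1.42.0 as an alternative. Benjamini-Hochberg adjustment ran over all 14629 genes tested. Intervals are 95% intervals of the fit, and log2 CPM has a prior count of 2. The test was also tried on simulated counts in which only KO was changed and no library had a GC trend. That trial cannot show how the test behaves under such trends.

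All 10 members are named, with Bcl2, Cradd, Pidd1 and the 6 genes of the wider list with the smallest adjusted p in the pooled contrast, and 2 genes of like pattern per member. The members and lists were chosen with earlier results of these data known. The alternatives were DESeq2 size factors in edgeR, DESeq2, no filter, only the groups compared, the replicate number as a block, SOM in the pooled contrast and each library left out, plus removal of a GC and length trend.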

Additional observations from a re-analysis of the deposited data

How the results depend on the processing

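For the 10 members in 12 comparisons and the difference of differences, and the named genes of the wider list in the pooled contrast, 1531 values were recomputed under the alternatives. Of these 1454 kept their side of the threshold, 34 lost a call and 43 gained one, and no called value changed sign. Counts of called members move with the counts over all genes, which are given beside them. Leaving out 1 library at a time gave 3 to 5 members in the pooled contrast (2727 to 6205 of all genes), 0 to 2 in KO against WT (237 to 606), 0 to 3 in 41585 against 41584 (348 to 1820), 0 to 4 in 41585 against WT (419 to 2711), 0 to 2 in 41584 against KO (203 to 1332), 0 to 1 in 41589 against KO (186 to 694) and 0 to 2 in 41589 against WT (0 to 647).

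Without the filter on low counts, with 27047 genes tested, 1 member was called in 41585 against KO (119 of all genes), 2 in 41584 against KO (1858), 2 in 41589 against KO (1768), 3 in SOM against WT (1345) and 1 in 41589 against WT (541). DESeq2 called 1 in SOM against KO (1294 of all genes), 3 in 41584 against KO (1492), 2 in 41589 against KO (1416) and 2 in SOM against WT (662). With only the groups compared in the fit, 4 were called in KO against WT (4892 of 13635 genes), 1 in 41585 against KO (545 of 13392), 2 in SOM against KO (2265 of 12861), 0 in 41589 against KO (833 of 13759) and 3 in SOM against WT (2035 of 12956). With the GC and length trend removed, chosen after seeing the data, 2 were called in 41584 against KO (1880 of 14629 genes) and 3 in 41589 against KO (1788), where TMM alone called 1088 and 1037 genes. The cause of these changes was not tested.

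The replicate block gave 1 called member in SOM against KO (1084 of 14629 genes), 2 in 41584 against KO (1313) and 2 in 41589 against KO (1248), the added gene being Casp2 each time, and Bcl2l1 was added in KO against WT. Whether the replicate numbers mark a shared batch is not given by the labels. Deviations of same-numbered libraries correlated at −0.0832 to 0.508 over 15 pairs of groups. They were over 0.1 in 5 pairs and not in the other 10. These 5 were WT with 41589 (0.508), 41584 with 41589 (0.182) and all pairs of SOM, 41584 and 41585. Since the labels give no batch, the numbers were not used as a pairing in the main fit. Whether part of the groups share a batch was not tested.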
